A study of Homo sapiens with 4 samples.

Results

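SUM159-R is a paclitaxel-resistant derivative of SUM159, a human triple-negative breast cancer line of mesenchymal type. The data described here are what 500 nM paclitaxel added in these cells when the protein kinase C (PKC) inhibitor enzastaurin was present, that is, the combination library against the library of enzastaurin alone. The combination cells received 500 nM paclitaxel and 2.5 µM enzastaurin for 24 h, and the enzastaurin cells 2.5 µM enzastaurin for the same time. In the matching pair without enzastaurin, cells received 500 nM paclitaxel or DMSO. All 4 groups carry the genotype label WT and come from a resistant culture kept in 150 nM paclitaxel, and the sources used here do not say whether that paclitaxel was withdrawn before treatment. Each group is 1 library of total RNA, so no level or ratio has a replicate error. The members are the 6986 genes, of 20289 in the table, whose mean over the 4 libraries was 500 counts or more.

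Paclitaxel binds beta-tubulin and stabilises microtubules, so that cells which enter mitosis under the drug cannot satisfy the spindle checkpoint and stay in M phase. Entry into mitosis is driven by cyclin B1 and its kinase CDK1, and exit by the anaphase-promoting complex, which tags cyclin B1 and other mitotic proteins for destruction. PKC enzymes are lipid-activated kinases that feed into ERK, AP-1 and NF-kB signalling, and enzastaurin was developed as an inhibitor of the beta isozyme.

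The libraries held 18236527 counts for the combination, 21959564 for enzastaurin, 24699948 for paclitaxel and 22576953 for DMSO. Levels are given in CPM, counts scaled to a fixed library total by TMM, with exact 95% Poisson intervals, and ratios as log2 with exact 95% Clopper-Pearson conditional intervals. The intervals cover counting error alone; no molecular identifiers are described, so reads are not taken as independent molecules. The TMM factors lay between 0.988 and 1.006, and the mitochondrial share of counts was 6.70% in the combination library and 7.06% to 7.12% in the others. The hormone receptor genes, which a triple-negative line lacks, were at or near 0. PGR had 0 counts in all 4 libraries. With 3 counts taken as the upper limit of a 0, in place of the exact interval, this allows up to 0.166 CPM in the combination. In enzastaurin it allows up to 0.136 CPM. ESR1 had 3 counts in the combination library and 0 in the enzastaurin library. ERBB2, the gene of the HER2 receptor, was at 65.4 CPM in the combination and 83.4 CPM in enzastaurin. VIM, the mesenchymal intermediate filament gene, had 66398 counts (3684 CPM) in the combination library and 87362 (3957 CPM) in the enzastaurin library. CD44 was at 490 CPM in the combination and 582.9 CPM in enzastaurin. The epithelial keratin gene KRT18 was expressed as well, at 315.1 CPM in the combination and 259.1 CPM in enzastaurin. EPCAM, another epithelial gene, had 3 counts in the combination library and 5 in the enzastaurin library. Of 11 markers of blood, vessel, fat and liver cells, between 5 and 6 had any count, and ADIPOQ and CD3E were among those at 0 throughout. Their summed level was 17.98 CPM in the combination, 15.44 in enzastaurin, 22.41 in paclitaxel and 20.81 in DMSO, most of it CD68.

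Far more genes were 2-fold or more lower than 2-fold or more higher in the combination library than in the library of enzastaurin alone. A gene is called higher or lower where the libraries differed by 2-fold or more after TMM scaling and the counting interval did not include equality. Of the 6986 genes, 219 (3.13%) were called in combination over enzastaurin: 13 higher (0.186%) and 206 lower (2.95%). Smaller shifts were spread over most of the transcriptome, with a counting interval above 0 for 2854 genes (40.9%) and below 0 for 2314 (33.1%). The median log2 ratio was 0.04, the SD across genes 0.40, and the 5th and 95th percentiles lay at -0.80 and 0.47, so the longer tail was on the lower side. With 1 library on each side, the ratios describe 2 libraries, and how far separate cultures would differ is unknown.

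**Figure D1:**
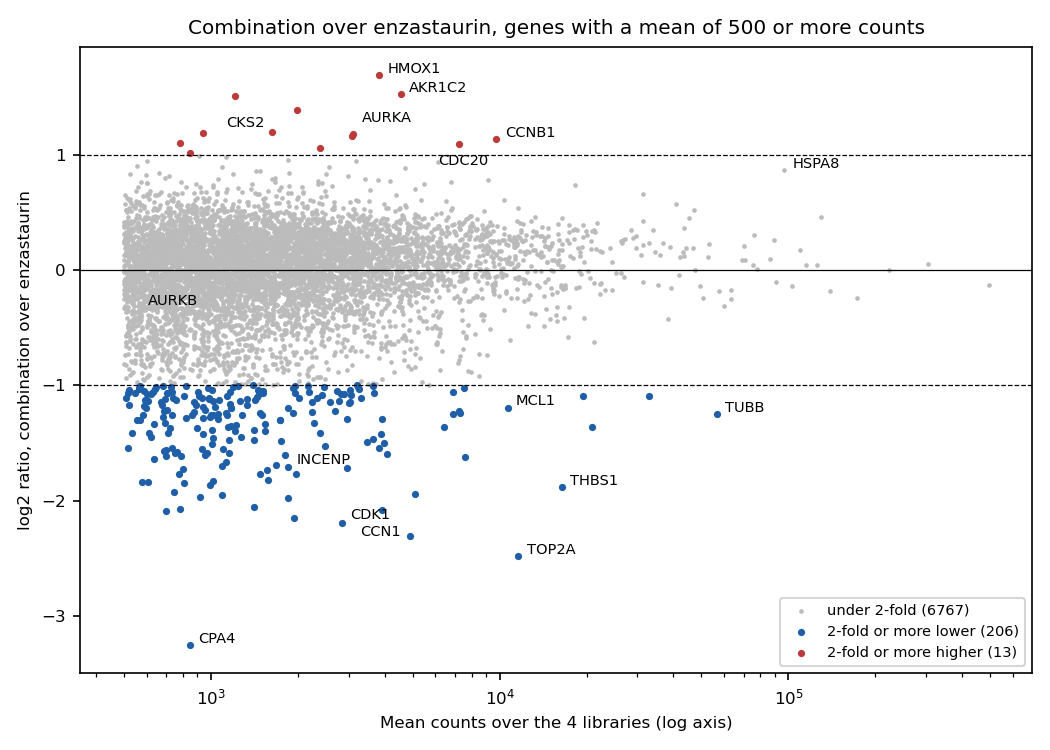
Each point is a gene with a mean of 500 or more counts; the x axis is the mean count over the 4 libraries on a log scale and the y axis the log2 ratio of combination over enzastaurin, with dashed lines at 2-fold. The 206 blue points (2-fold or more lower) reach -3.25 at CPA4, while the 13 red points (2-fold or more higher) reach 1.69 at HMOX1.

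CPA4, a secreted zinc carboxypeptidase (chromosome 7, 130293134 to 130324180, plus strand of hg38), had the lowest ratio of all. It was at 5.6 CPM (4.56 to 6.81) under the combination, 53.4 CPM (50.4 to 56.5) under enzastaurin, 28.7 CPM (26.6 to 30.9) under paclitaxel and 61.9 CPM (58.7 to 65.2) under DMSO. The combination library was far below the other 3, and paclitaxel alone was below DMSO as well. The log2 ratio of combination over enzastaurin was -3.25 (-3.56 to -2.96), which is 9.52-fold lower.

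TOP2A (chromosome 17, 40388516 to 40417950, minus strand) encodes topoisomerase II alpha, which untangles sister chromosomes before they separate. Its level was 124 CPM (119 to 129) under the combination, 692 CPM (681 to 703) under enzastaurin, 555 CPM (546 to 565) under paclitaxel and 668 CPM (657 to 679) under DMSO. Only the combination library stood apart, and the other 3 lay between 555 and 692 CPM. TOP2A fell, with a log2 ratio of -2.48 (-2.55 to -2.42). CDK1 (chromosome 10, 60778331 to 60794852, plus strand), the kinase that triggers mitosis, was at 35.8 CPM under the combination, 164 CPM under enzastaurin, 141 CPM under paclitaxel and 159 CPM under DMSO. Its pattern was that of TOP2A, with a single low library and a log2 ratio of -2.20 (-2.32 to -2.08).

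CCN1 (chromosome 1, 85580761 to 85583962, plus strand), a matrix-associated signalling protein and a target of the transcription coactivator YAP, was at 56.0 CPM under the combination, 278 CPM under enzastaurin, 207 CPM under paclitaxel and 326 CPM under DMSO, a log2 ratio of -2.31 (-2.41 to -2.21). JUND (chromosome 19, 18279760 to 18281622, minus strand), a subunit of the AP-1 transcription factor, was at 9.21 CPM under the combination, 39.1 CPM under enzastaurin, 29.2 CPM under paclitaxel and 46.5 CPM under DMSO, a log2 ratio of -2.09 (-2.34 to -1.85). For these 2 genes paclitaxel alone also lay below DMSO, by less. TGFBR3, the TGF-beta co-receptor betaglycan, was at 11.7 CPM under the combination, 49.1 CPM under enzastaurin, 38.1 CPM under paclitaxel and 39.2 CPM under DMSO, a log2 ratio of -2.07 (-2.29 to -1.85). THBS1 (chromosome 15, 39581079 to 39599466, plus strand), the matrix protein thrombospondin-1, had the most counts of the 15, with 4276 in the combination library and 19344 in the enzastaurin library. Its log2 ratio was -1.88 (-1.93 to -1.84).

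FLOT2, a scaffold of membrane microdomains, was at 23.9 CPM under the combination against 106 CPM under enzastaurin, a log2 ratio of -2.15 (-2.31 to -2.01), and EHD2, a caveola-associated ATPase, was at 51.4 CPM under the combination against 217 CPM under enzastaurin, a log2 ratio of -2.08 (-2.18 to -1.98). NCSTN, the nicastrin subunit of gamma-secretase, fell with a log2 ratio of -2.05 (-2.22 to -1.89), SLC29A1, a nucleoside transporter, with -1.98 (-2.12 to -1.83), and ARL6IP1, a membrane-shaping protein of the endoplasmic reticulum, with -1.95 (-2.03 to -1.86). FBXO5 and CCNF, which both act on ubiquitin ligases of the cell cycle, are described with the mitotic genes. The last of the 15, RGPD5, is a near-identical copy of other RANBP2-like genes. Alone it was at -1.93 (-2.16 to -1.70), but summed with RGPD6, RGPD8 and RGPD3 it had 991 counts in the combination library and 1080 in the enzastaurin library, a log2 ratio of 0.17 (0.04 to 0.29), so its own value is uncertain.

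Oxidative stress enzymes headed the higher side. HMOX1 (chromosome 22, 35380361 to 35394214, plus strand), haem oxygenase-1, was at 342 CPM (334 to 351) under the combination, 106 CPM (102 to 111) under enzastaurin, 202 CPM (196 to 207) under paclitaxel and 80.2 CPM (76.5 to 83.9) under DMSO. The order of the libraries was combination, paclitaxel, enzastaurin, DMSO, with no overlap of counting intervals, and the log2 ratio of combination over enzastaurin was 1.69 (1.62 to 1.76). The aldo-keto reductase genes AKR1C2 (chromosome 10, 4987400 to 5018031, minus strand) and AKR1C1 (chromosome 10, 4963253 to 4983283, plus strand) followed the same order. AKR1C2 was at 398 CPM under the combination, 138 CPM under enzastaurin, 237 CPM under paclitaxel and 94.7 CPM under DMSO, a log2 ratio of 1.52 (1.46 to 1.58). AKR1C1 was at 105 CPM under the combination, 36.6 CPM under enzastaurin, 60.4 CPM under paclitaxel and 30.1 CPM under DMSO, a log2 ratio of 1.51 (1.39 to 1.63). These 2 genes share sequence, 41.25% of the 75-base windows of AKR1C2 and 22.2% of those of AKR1C1. Summed, they had 9052 counts in the combination library and 3865 in the enzastaurin library, a log2 ratio of 1.52 (1.47 to 1.58).

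Regulators of mitosis were the next group among the 13 higher genes. CKS2, a small CDK-binding subunit, was at 135 CPM in combination cells, 58.6 in enzastaurin cells, 63.2 in paclitaxel cells and 55.4 in DMSO cells, with a log2 ratio of 1.20 (1.10 to 1.30). AURKA (chromosome 20, 56369389 to 56392337, minus strand), the centrosome and spindle pole kinase, was at 245 CPM in combination cells, 108 in enzastaurin cells, 129 in paclitaxel cells and 107 in DMSO cells, with a log2 ratio of 1.18 (1.11 to 1.25). CCNB1 (chromosome 5, 69167010 to 69178245, plus strand), cyclin B1, was at 774 CPM (761 to 787) under the combination, 352 CPM (344 to 359.9) under enzastaurin, 387 CPM (379.7 to 395) under paclitaxel and 339 CPM (331 to 347) under DMSO. CDC20 (chromosome 1, 43358955 to 43363203, plus strand), the mitotic activator of the anaphase-promoting complex, was at 549 CPM in combination cells, 258 in enzastaurin cells, 287 in paclitaxel cells and 272 in DMSO cells. In all of these genes the combination library was alone at the top and the other 3 were close together. CCNB1 rose with a log2 ratio of 1.14 (1.10 to 1.18) and CDC20 with 1.09 (1.04 to 1.14). After removing a smooth dependence of the ratio on transcript length and GC content, CKS2 was at 0.89 and CDC20 at 0.99, short of the 2-fold limit.

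The other higher genes were of mixed kinds. UGDH, which makes the UDP-glucuronate used in glucuronidation and matrix synthesis, was at 244 CPM under the combination against 109 CPM under enzastaurin, a log2 ratio of 1.16 (1.09 to 1.23). NPIPB5, with a log2 ratio of 1.39 (1.30 to 1.48), NPIPB12, with 1.19 (1.06 to 1.32), and NPIPB3, with 1.10 (0.96 to 1.25), belong to a duplicated family on chromosome 16 and share sequence. NPIPB3 was at 0.95 with the dependence on length and GC removed. Summed over 6 NPIPB genes they had 6308 counts in the combination library and 3332 in the enzastaurin library, a log2 ratio of 1.21 (1.15 to 1.28). SAPCD2, a regulator of spindle orientation, was at 1.06 (0.97 to 1.14), and DDX10, an RNA helicase of ribosome assembly, at 1.02 (0.88 to 1.16). SAPCD2 was just under 2-fold on the log2(FPKM + 1) scale, at 0.999, and DDX10 was at 0.99 with library size as the only scaling and at 0.92 on the log2(FPKM + 1) scale. The next 2 in rank, TACC2 at 0.99 (0.85 to 1.12) and RNF145 at 0.98 (0.86 to 1.10), were not called. On the lower side B4GALT1 and SKA2, at -1.0007 and -1.0009, were just inside the limit, and E2F7, at -0.99999, and PRIM1, at -0.996, just outside it. TRAFD1, with the lowest mean among the members, was at 0.04 (-0.16 to 0.23), and PRKCH, with the highest mean below 500 counts, at -0.31 (-0.51 to -0.11).

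**Figure D2:**
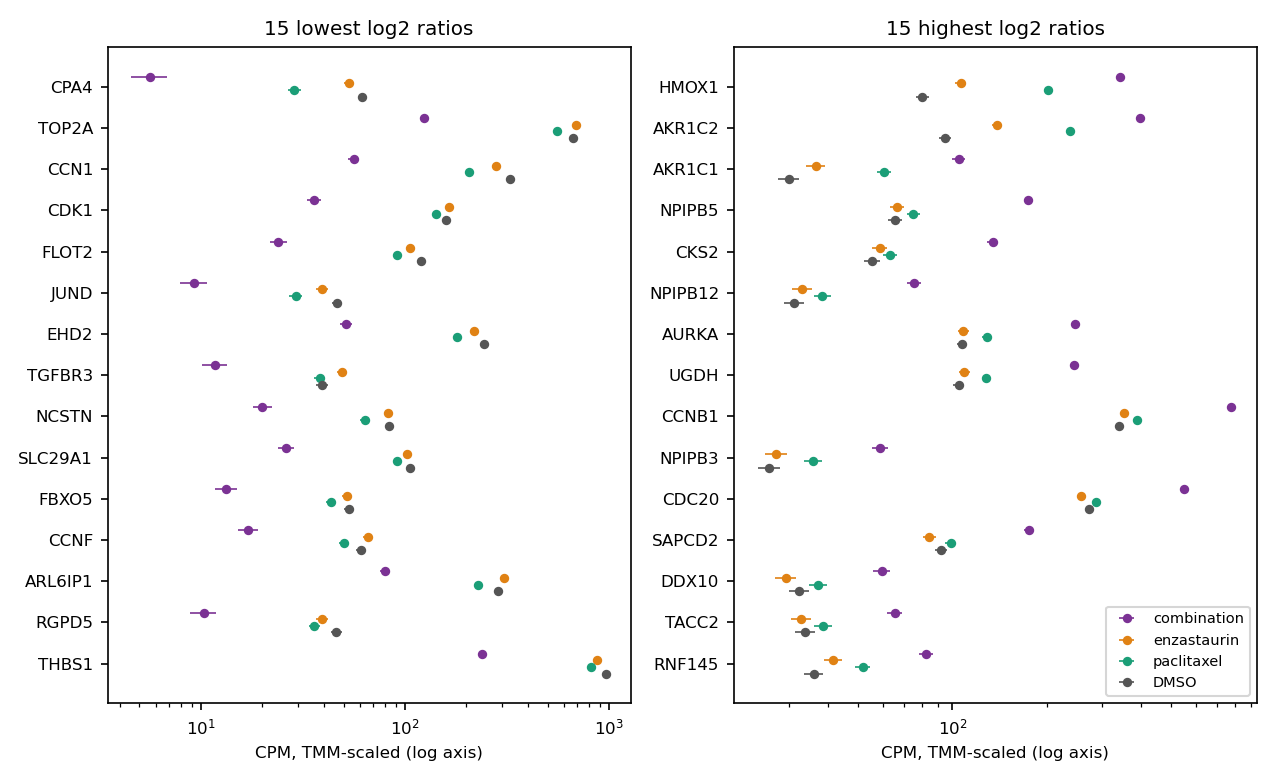
Levels in CPM (log axis) of the 15 lowest and the 15 highest genes by ratio of combination over enzastaurin, 1 point per library with its exact 95% Poisson interval (counting error only). In the left panel the combination point lies left of the other 3 in every gene (CPA4 5.60 CPM against 53.4 under enzastaurin), and in the right panel it lies right of them (HMOX1 342 CPM against 106 under enzastaurin).

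Genes of mitosis moved in both directions. Of 27 genes listed for mitotic entry and G2/M, 26 were members, of which 3 rose (CKS2, AURKA and CCNB1) and 6 fell (TOP2A, CDK1, ARL6IP1, CCNF, UBE2C and WEE1), against 0.186% and 2.95% of all members. The median of the 26 was 0.33, against 0.04 over all members, so most of the list lay on the higher side while the 6 called lower lay far on the other. UBE2C and WEE1 were chosen after their values were seen. CCNF, the F-box cyclin that limits centrosome and nucleotide synthesis proteins, was at 16.98 CPM under the combination against 65.7 CPM under enzastaurin, a log2 ratio of -1.95 (-2.14 to -1.77). UBE2C, the ubiquitin-conjugating enzyme of the anaphase-promoting complex, was at 15.8 CPM under the combination against 56.1 CPM under enzastaurin, a log2 ratio of -1.83 (-2.02 to -1.64). WEE1, the kinase that holds CDK1 inactive, was at 28.2 CPM under the combination against 67.3 CPM under enzastaurin, a log2 ratio of -1.26 (-1.40 to -1.11). CDK1 and its cyclin therefore moved apart: per length, CCNB1 was at 526 FPKM under the combination against 244 FPKM under enzastaurin, and CDK1 at 18.95 FPKM under the combination against 87.65 FPKM under enzastaurin. RNA of a whole culture cannot tell a change of level within cells from a change in how many cells are in a given phase.

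The promoters of 4 of these genes are shown because the genes peak together in G2 and M phase and yet lay at opposite ends of the ranking, TOP2A and CDK1 among the lowest and CCNB1 and CDC20 among the highest. Promoters of this class commonly carry CCAAT boxes, bound by NF-Y, and a cell cycle genes homology region (CHR, core letters TTTGAA), bound by the MuvB complexes. Capitals mark CCAAT and TTTGAA, read on either strand (ATTGG and TTCAAA are the same motifs on the opposite strand). Each is the 250 bases before the RefSeq start in GRCh38.p14, printed 5′ to 3′ on the gene's strand: chr17:40417897-40418146 (minus strand) for TOP2A, chr10:60778081-60778330 (plus) for CDK1, chr5:69166900-69167149 (plus) for CCNB1 and chr1:43358731-43358980 (plus) for CDC20.
TOP2A: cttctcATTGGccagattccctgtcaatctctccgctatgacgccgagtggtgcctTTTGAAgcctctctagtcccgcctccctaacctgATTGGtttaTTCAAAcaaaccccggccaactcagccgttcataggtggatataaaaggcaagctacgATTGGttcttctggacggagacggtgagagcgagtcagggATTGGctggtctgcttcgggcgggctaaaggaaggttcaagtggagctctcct
CDK1: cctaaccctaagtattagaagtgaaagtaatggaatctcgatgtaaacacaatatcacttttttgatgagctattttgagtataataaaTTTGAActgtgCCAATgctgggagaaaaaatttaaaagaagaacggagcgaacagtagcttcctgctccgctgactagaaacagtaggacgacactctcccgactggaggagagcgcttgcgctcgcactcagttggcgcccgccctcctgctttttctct
CCNB1: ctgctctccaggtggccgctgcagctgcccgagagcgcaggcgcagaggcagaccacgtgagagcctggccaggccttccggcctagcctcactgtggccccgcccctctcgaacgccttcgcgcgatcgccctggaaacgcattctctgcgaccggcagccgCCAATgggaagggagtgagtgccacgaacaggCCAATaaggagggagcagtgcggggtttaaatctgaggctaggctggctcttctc
CDC20: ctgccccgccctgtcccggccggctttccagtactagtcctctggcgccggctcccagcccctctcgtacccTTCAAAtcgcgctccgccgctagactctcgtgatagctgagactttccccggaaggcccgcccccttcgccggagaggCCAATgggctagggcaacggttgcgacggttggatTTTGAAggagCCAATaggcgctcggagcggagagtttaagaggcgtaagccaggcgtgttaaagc
TOP2A has 4 CCAAT boxes and 2 CHR cores, CDK1 has 1 of each, CCNB1 has 2 CCAAT boxes and no CHR core in this window, and CDC20 has 2 of each. CCAAT boxes were thus found in the lower and the higher genes alike, and CHR cores in both lower genes and in CDC20. Only the exact letters were searched, so a variant form of either motif, or a motif outside the window, was not counted.

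Genes of the anaphase-promoting complex and the spindle checkpoint lay on both sides. Of 27 listed genes 23 were members, with 1 called higher (CDC20), against 0.186% of all members, and 3 called lower, against 2.95%. An interval lay above 0 in 14, against 40.9% of all members, and below 0 in 7, against 33.1%, with a median of 0.13. FBXO5, an inhibitor of the anaphase-promoting complex, was at 13.3 CPM under the combination, 52.1 CPM under enzastaurin, 43.5 CPM under paclitaxel and 53.2 CPM under DMSO, a log2 ratio of -1.97 (-2.18 to -1.77). FZR1, the activator that replaces CDC20 at the end of mitosis and in G1, was at 12.4 CPM under the combination, 44.8 CPM under enzastaurin, 37.4 CPM under paclitaxel and 48.4 CPM under DMSO, a log2 ratio of -1.85 (-2.07 to -1.64). In both genes the combination library was the only low one. The pair of activators thus differed in direction, CDC20 higher and FZR1 lower. BUB3, a checkpoint protein at unattached kinetochores, was at 92.4 CPM under the combination against 194 CPM under enzastaurin, a log2 ratio of -1.07 (-1.15 to -0.99), but lay at -0.98 with the dependence on length and GC removed and at -0.94 on the log2(FPKM + 1) scale.

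**Figure D3:**
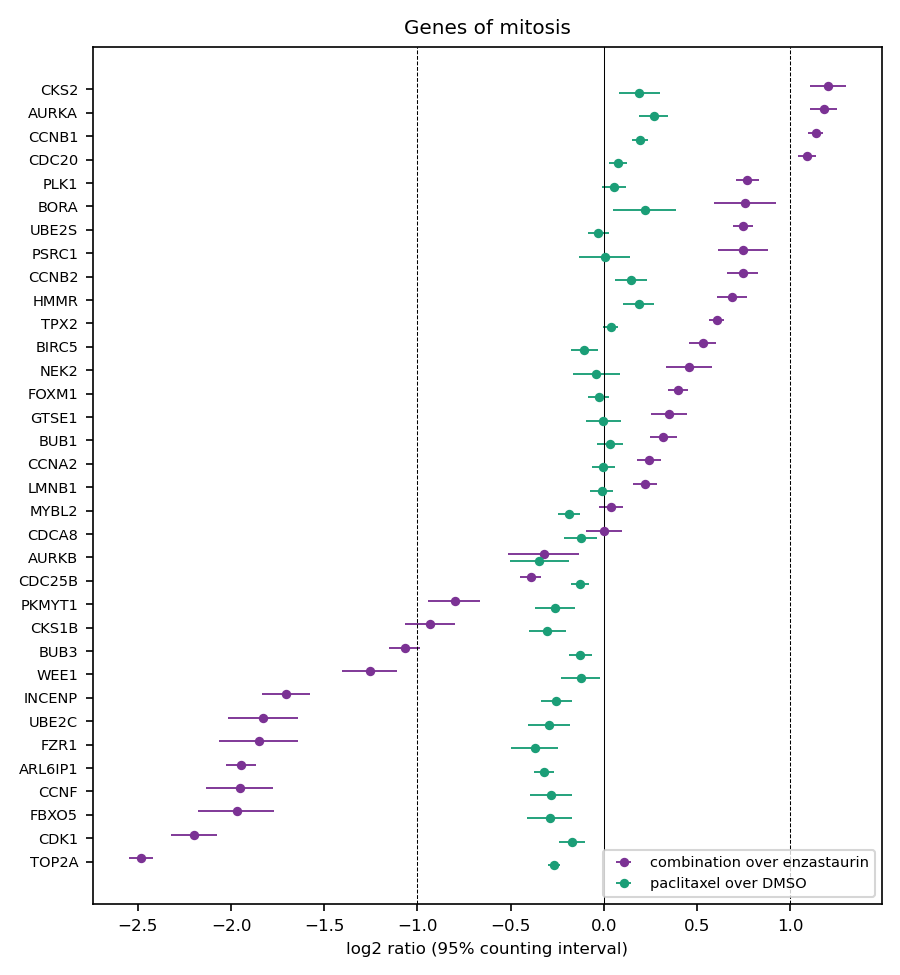
Log2 ratios with 95% counting intervals for the members listed for mitotic entry and G2/M, the 4 passenger complex genes, and CDC20, FBXO5, FZR1 and BUB3, with combination over enzastaurin in purple and paclitaxel over DMSO in green. The purple points run from 1.20 (CKS2) to -2.48 (TOP2A), while every green point lies between -0.37 and 0.27.

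Of the 4 subunits of the chromosomal passenger complex, which corrects faulty chromosome attachments, INCENP fell, against 2.95% of all members called lower. INCENP (chromosome 11, 62123973 to 62153163, plus strand), the scaffold that activates the kinase, was at 33.0 CPM under the combination, 107 CPM under enzastaurin, 86.1 CPM under paclitaxel and 103 CPM under DMSO, a log2 ratio of -1.70 (-1.84 to -1.57). AURKB (chromosome 17, 8204733 to 8210600, minus strand), the Aurora B kinase itself, was at 20.9 CPM (18.9 to 23.1) under the combination, 26.1 CPM (24.0 to 28.4) under enzastaurin, 24.5 CPM (22.6 to 26.6) under paclitaxel and 31.2 CPM (28.96 to 33.6) under DMSO. Its log2 ratio was -0.32 (-0.51 to -0.13), under the 2-fold limit, and that of paclitaxel over DMSO was -0.35 (-0.51 to -0.19). With the dependence on length and GC removed it was at -0.49. BIRC5, survivin, was at 0.53 (0.46 to 0.60), and CDCA8, borealin, at 0.00 (-0.10 to 0.10).

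Kinetochore genes and mitotic motors shifted less. Among 26 kinetochore and centromere members 2 fell, against 2.95% of all members, and the median was -0.02. An interval lay above 0 in 10, against 40.9% of all members, and below 0 in 8, against 33.1%. Both were near the shares over all members. DSN1, a subunit of the MIS12 complex, was at -1.05 (-1.22 to -0.89), and SKA2, a subunit of the SKA complex that tracks microtubule ends, at -1.0 (-1.13 to -0.87). Neither stayed past 2-fold on the log2(FPKM + 1) scale, where DSN1 was just short of it and SKA2 was at -0.59. None of 21 mitotic kinesin and cytokinesis members was called, against 3.13% of all members. The extremes were KIF20A, a motor of the central spindle, at 0.89 (0.83 to 0.94), and NUSAP1, a spindle microtubule bundler, at -0.98 (-1.07 to -0.90).

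Genes of G1 and S phase were lower more often than higher. Of 24 genes listed for the G1 to S transition 16 were members, 4 fell, against 2.95% of all members, and none rose. An interval lay below 0 in 11, against 33.1% of all members, and above 0 in 3, against 40.9%, with a median of -0.48. CCNE2, cyclin E2, was at 9.66 CPM under the combination, 34.6 CPM under enzastaurin, 31.0 CPM under paclitaxel and 31.6 CPM under DMSO, a log2 ratio of -1.84 (-2.09 to -1.602). RBL1, the pocket protein p107, was at 21.2 CPM under the combination against 62.0 CPM under enzastaurin, a log2 ratio of -1.55 (-1.72 to -1.38). E2F1, a transcription factor that switches on S phase genes, was at 18.7 CPM under the combination against 40.4 CPM under enzastaurin, a log2 ratio of -1.11 (-1.30 to -0.93). CDK6, a cyclin D kinase, was at -1.01 (-1.11 to -0.90) and lay at -0.99 with DESeq2 size factors and at -0.86 with the dependence on length and GC removed.

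Replication genes shifted by less but nearly all one way. Of 29 members of 30 genes listed for S phase and licensing, 26 had a counting interval below 0, against 33.1% of all members. An interval lay above 0 in 1, against 40.9%. The median was -0.40, and 1 gene was called lower, against 2.95% of all members. That gene was GINS1, a subunit of the replicative helicase, at 26.5 CPM under the combination against 57.7 CPM under enzastaurin, a log2 ratio of -1.13 (-1.28 to -0.97). PRIM1, the primase subunit that makes the RNA primer, was at -1.0 (-1.18 to -0.81), just short of the limit. No replication-dependent histone gene reached a mean of 500 counts, and none is described.

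Targets of NRF2, the transcription factor of the oxidative stress response, were higher. Of 25 listed genes 23 were members, 3 rose (HMOX1, AKR1C2 and AKR1C1), against 0.186% of all members, none fell, and 20 had an interval above 0, against 40.9% of all members. The median was 0.46, with a range from -0.66 to 1.69. The lowest of the list was ABCC2, an efflux pump of conjugated compounds, at -0.66 (-0.74 to -0.59). In the glutathione and thioredoxin list none of 22 members was called, against 0.186% called higher and 2.95% called lower of all members. An interval lay above 0 in 16, against 40.9% of all members, with a median of 0.28. GCLM, the modifier subunit of the enzyme that limits glutathione synthesis, was at 131 CPM in combination cells, 73.3 in enzastaurin cells, 82.3 in paclitaxel cells and 64.4 in DMSO cells, with a log2 ratio of 0.84 (0.75 to 0.93). SLC3A2, the heavy chain of the cystine transporter, was at 0.65 (0.59 to 0.71). Here too the combination library was the highest and paclitaxel the next.

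Chaperone, proteasome and ribosomal protein genes formed broad and small upward shifts with no gene past 2-fold. Over all members 0.186% were called higher and 2.95% lower. Among 23 heat shock and chaperone members 19 had an interval above 0, against 40.9% of all members, and the median was 0.43. HSPH1, a nucleotide exchange factor of the cytosolic chaperones, was at 439 CPM in combination cells, 229 in enzastaurin cells, 259.6 in paclitaxel cells and 224 in DMSO cells, with a log2 ratio of 0.94 (0.89 to 0.99). HSPA8, the constitutive cytosolic chaperone HSC70, was at 6461 CPM in combination cells, 3540.0 in enzastaurin cells, 4314 in paclitaxel cells and 3778 in DMSO cells, with a log2 ratio of 0.87 (0.85 to 0.88). Of 34 proteasome members 31 had an interval above 0, against the same 40.9%, with a median of 0.33. The largest were PSMC4, at 0.55 (0.46 to 0.64), and PSMC6, at 0.50 (0.42 to 0.59), both ATPases of the regulatory particle. All 65 cytosolic ribosomal protein genes had an interval above 0, against 40.9% of all members, with log2 ratios between 0.12 and 0.51 and a median of 0.33. RPS27 was at 0.51 (0.45 to 0.58) and RPS21 at 0.49 (0.39 to 0.59). These are short transcripts, and after removal of that dependence on length and GC content the medians were 0.14 for ribosomal proteins and 0.18 for the proteasome, with RPS27 at 0.23 and RPS21 at 0.30.

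Targets of YAP and TEAD, which report on cell shape and adhesion, were lower as a list. Of 25 listed genes 23 were members, 4 fell, against 2.95% of all members, and none rose. An interval lay below 0 in 18, against 33.1% of all members, and above 0 in 2, against 40.9%. The median was -0.61, and -0.43 with the dependence on length and GC removed. Besides CCN1, the called genes were CCN2, connective tissue growth factor, AMOTL2, an adaptor that binds YAP, and GADD45B, a stress-induced signalling protein. CCN2 was at 31.6 CPM under the combination, 108 CPM under enzastaurin, 96.8 CPM under paclitaxel and 112 CPM under DMSO, a log2 ratio of -1.77 (-1.91 to -1.64). AMOTL2 was at -1.49 (-1.59 to -1.40) and GADD45B at -1.36 (-1.53 to -1.20). All 4 were lowest in the combination library.

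AP-1 and immediate early genes, which respond within minutes to growth signals, were lower more often than higher. Among 16 members 3 fell, against 2.95% of all members. An interval lay below 0 in 11, against 33.1% of all members, and above 0 in 5, against 40.9%, with a median of -0.39. After JUND came KLF6, a zinc finger transcription factor, at 79.5 CPM under the combination against 213 CPM under enzastaurin, a log2 ratio of -1.42 (-1.51 to -1.34). ZFP36, which destabilises AU-rich mRNAs, was at 20.8 CPM under the combination against 47.3 CPM under enzastaurin, a log2 ratio of -1.19 (-1.36 to -1.02). None of 15 ERK feedback members was called, against 3.13% of all members, and the list median was 0.06. The phosphatase genes DUSP1, at -0.92 (-1.03 to -0.81), and DUSP7, at -0.76 (-0.88 to -0.64), were the furthest from 0.

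Matrix genes, secreted factors and their receptors were on the lower side. Of 34 genes listed as matrix, proteases and inhibitors 19 were members, and 3 fell (CPA4, THBS1 and COL12A1), against 2.95% of all members. An interval lay below 0 in 15, against 33.1% of all members, and above 0 in 2, against 40.9%, and the median was -0.43. COL12A1, a fibril-associated collagen, was at -1.01 (-1.09 to -0.93) and short of 2-fold with DESeq2 size factors, at -0.99, and on the log2(FPKM + 1) scale, at -0.89. In the TGF-beta list CCN2 and SKI fell among 12 members, against 2.95% of all members, and the median was -0.24. An interval lay below 0 in 10 of the 12, against 33.1% of all members, and above 0 in 1, against 40.9%. SKI, a repressor of that pathway, was at -1.06 (-1.17 to -0.95) and lay at -0.96 with the dependence on length and GC removed. NRG1, neuregulin-1, a ligand of the ERBB receptors, fell with -1.37 (-1.55 to -1.20), but on the log2(FPKM + 1) scale it was at -0.88. NRG1 is among the 7 members of the EGFR family list, with a median of -0.27, and the 10 secreted cytokines and growth factors, with -0.28. In both lists it was the only member called, against 2.95% of all members called lower. An interval lay below 0 in 5 of the 7 and in 7 of the 10, against 33.1% of all members. An interval above 0 was found in 1 member of each list, against 40.9%. CSF1, macrophage colony-stimulating factor, was at -0.90 (-1.0 to -0.80), and AXL, a receptor tyrosine kinase that is on the EGFR family and YAP lists, at -0.88 (-0.93 to -0.82). In the NF-kB list an interval lay below 0 in 7 of 15 members, against 33.1% of all members, and above 0 in 2, against 40.9%. The median was -0.12, and 1 of the 15 fell, against 2.95% of all members. That was NFKBIA, the inhibitor IkB-alpha and itself a target of NF-kB, at 54.8 CPM under the combination, 129 CPM under enzastaurin, 109 CPM under paclitaxel and 109 CPM under DMSO, a log2 ratio of -1.24 (-1.34 to -1.13). CXCL8, interleukin-8, was at -0.34 (-0.42 to -0.25), and at -0.51 with the dependence on length and GC removed.

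Tubulin genes differed in direction. TUBB (chromosome 6, 30720201 to 30725426, plus strand), the main beta-tubulin gene of most dividing cells, was at 1308 CPM (1291 to 1325) under the combination, 3103 CPM (3079 to 3126) under enzastaurin, 2852 CPM (2832 to 2874) under paclitaxel and 2814 CPM (2792 to 2836) under DMSO. The 3 libraries other than the combination lay close together, and the combination library was 2.37-fold below enzastaurin, a log2 ratio of -1.25 (-1.27 to -1.22). TUBA1C, an alpha-tubulin, was at 484 CPM under the combination against 1033 CPM under enzastaurin, a log2 ratio of -1.09 (-1.13 to -1.06). The other 8 of 10 members were not called, and 2.95% of all members were called lower. An interval lay above 0 in 4 of the 10, against 40.9% of all members, and below 0 in 5, against 33.1%. Both directions were thus present within the family, as they were over all members. Of 24 genes for microtubule-associated proteins 2 fell, against 2.95% of all members, and the median was 0.05. An interval lay above 0 in 8, against 40.9% of all members, and below 0 in 8, against 33.1%. MAP1B, a microtubule-stabilising protein, was at 82.3 CPM under the combination against 233 CPM under enzastaurin, a log2 ratio of -1.50 (-1.58 to -1.41). CKAP5, the microtubule polymerase also called ch-TOG, was at 170.2 CPM under the combination against 397 CPM under enzastaurin, a log2 ratio of -1.22 (-1.28 to -1.16).

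Lists of survival and drug response each held 1 call, on the lower side. These were 1 of 8 members in the BCL2 family, 1 of 11 in the p53 list and 1 of 8 in the FOXO and insulin receptor list, against 2.95% of all members. MCL1 (chromosome 1, 150574551 to 150579738, minus strand), an antiapoptotic BCL2 relative with a short-lived protein, was at 233 CPM (226 to 240.2) under the combination, 532 CPM (523 to 542) under enzastaurin, 561 CPM (551 to 569.9) under paclitaxel and 564 CPM (554 to 574) under DMSO. It fell with a log2 ratio of -1.19 (-1.24 to -1.14) and was the only called member of 8 in the BCL2 family, where BCL2L1, the gene of BCL-XL, was at -0.55 (-0.61 to -0.49). The median of that list was 0.15. In the p53 list 1 of 11 members fell. That was ZMAT3, an RNA-binding p53 target, at -1.07 (-1.26 to -0.88), which was at -0.57 on the log2(FPKM + 1) scale, while GADD45A was at -0.46 (-0.56 to -0.35). KLF9, a zinc finger factor, fell among 8 FOXO and insulin receptor members with -1.08 (-1.18 to -0.98), and TRIB1, a pseudokinase that recruits a ubiquitin ligase, was at -0.77 (-0.98 to -0.57).

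None of 7 ABC transporter members, the list that holds the efflux pumps, and none of 6 PKC and PKD members was called, against 3.13% of all members. ABCB1, the efflux pump P-glycoprotein, which carries paclitaxel out of cells, was at 447 CPM under the combination, 329 CPM under enzastaurin, 354 CPM under paclitaxel and 288 CPM under DMSO, a log2 ratio of 0.44 (0.40 to 0.49). Of 6 PKC and PKD members, the largest shifts were PRKCD, at -0.68 (-0.83 to -0.53), and PRKD1, at -0.47 (-0.65 to -0.29), and PRKCA, a classical isozyme that enzastaurin also inhibits, was at -0.24 (-0.30 to -0.17).

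The remaining lists held few calls. STARD4, a sterol transfer protein, was the only called member of 20 in the cholesterol list, against 2.95% of all members called lower. It was at 15.6 CPM under the combination against 47.1 CPM under enzastaurin, a log2 ratio of -1.59 (-1.78 to -1.40). SREBF1, a transcription factor of lipid synthesis, was at -0.86 (-1.0 to -0.72). In the cholesterol list an interval lay below 0 in 11, against 33.1% of all members, and above 0 in 1, against 40.9%, with a median of -0.12. Against 3.13% of all members called, no member was called in the integrated stress response (21 members), unfolded protein response (18), hypoxia and glycolysis (21), MYC network (13), actin (20), integrin (10), mesenchymal and epithelial (12), mitochondrially encoded (13), splicing (26) and RNA polymerase II (21) lists. Their medians lay between -0.09 and 0.12. Within them STC2, a secreted glycoprotein of the stress response, was at -0.99 (-1.07 to -0.91), PSAT1, an enzyme of serine synthesis, at -0.90 (-1.05 to -0.76), the chaperone gene DNAJB11 at 0.42 (0.34 to 0.51), and SEC61B, of the translocation channel, at 0.37 (0.26 to 0.48). MXD4, a MYC antagonist, was at -0.93 (-1.07 to -0.80) and ODC1, a MYC target that makes polyamines, at 0.74 (0.71 to 0.77). CLK2, a kinase of splicing factors, was at -0.92 (-1.13 to -0.72) and the splicing factor SRSF5 at -0.64 (-0.71 to -0.57). Of the actin genes, TPM2, a tropomyosin, was at 0.36 (0.31 to 0.41). EGLN3, a prolyl hydroxylase of the hypoxia pathway, was at -0.73 (-0.94 to -0.52) and BNIP3L, a mitophagy receptor, at -0.72 (-0.88 to -0.57). The integrin subunit gene ITGA10 was at -0.40 (-0.55 to -0.25) and ITGB1BP1, a regulator of integrin activation, at 0.31 (0.22 to 0.40). CCNT1, the cyclin of the elongation kinase P-TEFb, was at -0.56 (-0.68 to -0.44) and POLR2K, a small polymerase subunit, at 0.50 (0.33 to 0.67). Of the complex I subunits encoded in mitochondria, MT-ND1 was at 0.26 (0.24 to 0.27) and MT-ND3 at 0.27 (0.23 to 0.32). With the dependence on length and GC removed, SEC61B was at 0.08, MT-ND1 at 0.02, MT-ND3 at -0.08 and POLR2K at 0.25. FN1, fibronectin, was at -0.31 (-0.33 to -0.30) and ZEB1, a mesenchymal transcription factor, at 0.36 (0.25 to 0.46).

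**Figure D4:**
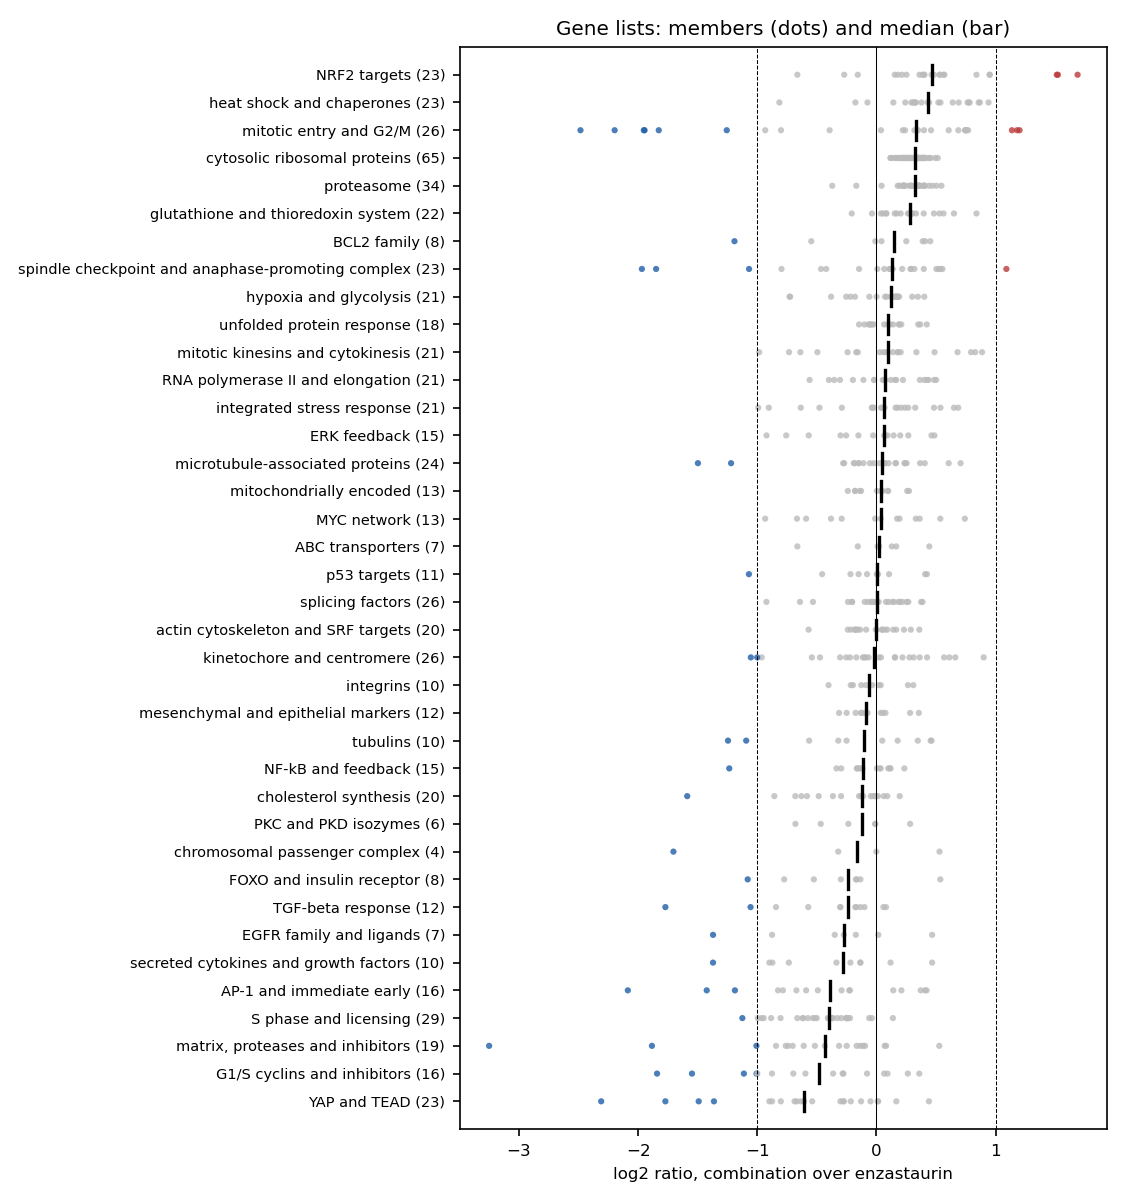
Log2 ratios of combination over enzastaurin for the members of each gene list (dots; red and blue are 2-fold or more higher and lower) with the list median as a black bar, and the number of members in brackets. Medians run from 0.46 for NRF2 targets to -0.61 for YAP and TEAD, and the mitotic entry list has dots on both sides, from 1.20 to -2.48.

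The same paclitaxel step without enzastaurin was far smaller. Paclitaxel over DMSO shares no library with combination over enzastaurin, and 4 of the 6986 genes (0.0573%) passed the same rule there, 3 higher (0.0429%: HMOX1, AKR1C2 and AKR1C1) and 1 lower (0.0143%: CPA4). The SD across genes was 0.13, against 0.40 in combination over enzastaurin, and the 5th and 95th percentiles were -0.21 and 0.19. At a 1.5-fold limit, 758 genes passed in combination over enzastaurin, 146 higher and 612 lower, and 19 in paclitaxel over DMSO, 13 higher and 6 lower.

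The weak shifts of paclitaxel over DMSO often ran the same way. Across the 6986 genes the 2 log2 ratios had a Pearson r of 0.479 and a Spearman rho of 0.431, given as a description over genes that are not independent. Intervals lay above 0 in both for 917 genes and below 0 in both for 895, while 283 were above in combination over enzastaurin and below in paclitaxel over DMSO, and 194 the reverse. Of the 206 genes lower in combination over enzastaurin, 143 also had an interval below 0 in paclitaxel over DMSO, against 21.1% of all members, 4 had one above 0 and 59 spanned it. The median of these 206 was -1.24 in combination over enzastaurin and -0.17 in paclitaxel over DMSO. Of the 13 higher genes all 13 had an interval above 0 in paclitaxel over DMSO, against 19.9% of all members, with medians of 1.18 in combination over enzastaurin and 0.27 in paclitaxel over DMSO. The combination was the lowest of the 4 libraries in all 206 and the highest in all 13. The difference of the 2 log2 ratios had a counting interval that excluded 0 in each of the 219 genes, and without replicates it has no test. The 219 genes were picked by a large ratio of combination over enzastaurin, which is a part of that difference. The selection by itself therefore favours an extreme combination library, a difference away from 0 and a smaller median in paclitaxel over DMSO. These counts and medians are no separate evidence of a larger response with enzastaurin.

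Gene by gene the size of that difference varied. For HMOX1 the log2 ratio was 1.69 (1.62 to 1.76) with enzastaurin present and 1.33 (1.25 to 1.41) without it, a difference of 0.36 (0.25 to 0.46). For AKR1C2 the difference was smaller, 0.20 (0.11 to 0.30), from 1.52 with enzastaurin and 1.32 without it. HMOX1, AKR1C2 and AKR1C1, the NRF2 targets at the top of the ranking, were thus called higher in both pairs. For CCNB1 the ratio was 1.14 with enzastaurin and 0.19 (0.15 to 0.24) without it, a difference of 0.94 (0.88 to 1.00). For TOP2A it was -2.48 with enzastaurin and -0.27 (-0.30 to -0.23) without it, a difference of -2.22 (-2.29 to -2.15), and for CDK1 the difference was -2.03 (-2.16 to -1.89). None of the mitotic genes passed the 2-fold limit in paclitaxel over DMSO. CPA4 was called in both pairs, with a difference of -2.14 (-2.46 to -1.82). ABCB1 was at 0.30 (0.25 to 0.35) in paclitaxel over DMSO, a difference of 0.14 (0.08 to 0.21). AURKB had a difference of 0.03 (-0.22 to 0.27), the interval of which includes 0.

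Many list medians were closer to 0 in paclitaxel over DMSO, as in the lists named first here, but some were not. The NRF2 list had a median of 0.46 in combination over enzastaurin and 0.21 in paclitaxel over DMSO. The S phase list was at -0.40 in combination over enzastaurin and -0.13 in paclitaxel over DMSO, and the YAP list at -0.61 in combination over enzastaurin and -0.11 in paclitaxel over DMSO. The ribosomal protein list was at 0.33 in combination over enzastaurin and 0.01 in paclitaxel over DMSO. Among the exceptions, the passenger complex list was at -0.16 in combination over enzastaurin and -0.19 in paclitaxel over DMSO. The actin list was at -0.0017 in combination over enzastaurin and -0.11 in paclitaxel over DMSO. Tubulins changed sign, from -0.10 in combination over enzastaurin to 0.10 in paclitaxel over DMSO. Some genes called lower with enzastaurin had a counting interval above 0 without it: TUBB, at 0.02 (0.00 to 0.03) in paclitaxel over DMSO, and 3 genes chosen after their values were seen, FAM156B, at 0.16 (0.04 to 0.28), SULT1E1, at 0.33 (0.18 to 0.48), and F2R, at 0.13 (0.07 to 0.20).

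**Figure D5:**
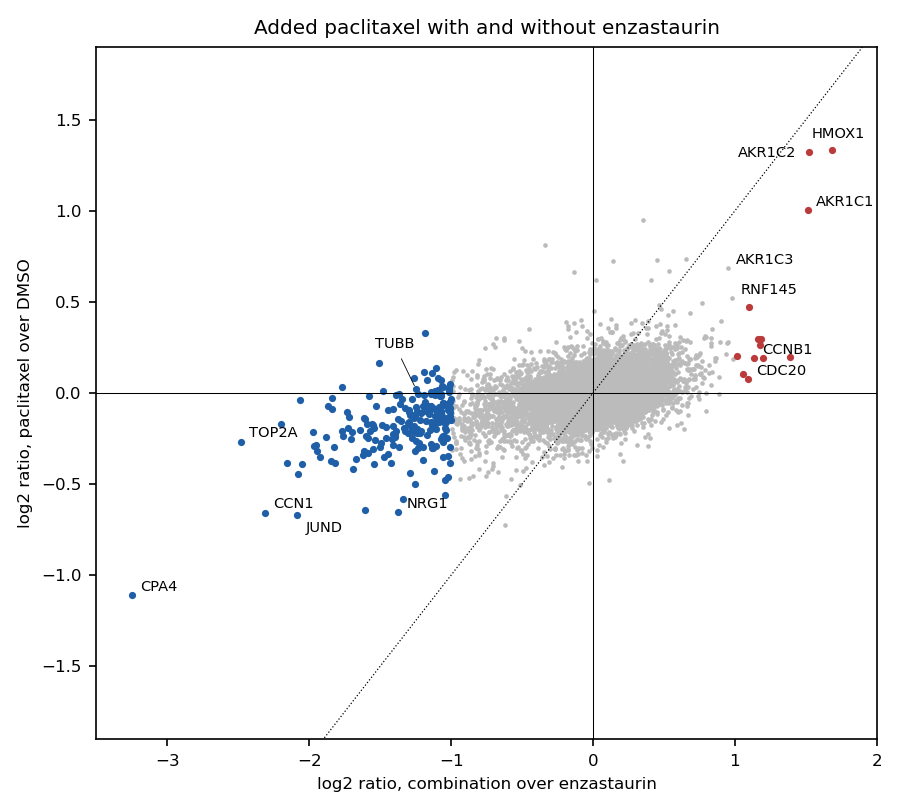
Each point is a gene; the x axis is the log2 ratio of combination over enzastaurin and the y axis that of paclitaxel over DMSO, with equality on the dotted line and the genes called in combination over enzastaurin in red (higher) and blue (lower). The 206 blue points spread from the 2-fold limit to -3.25 on the x axis with a median of -1.24 there and -0.17 on the y axis, and HMOX1, AKR1C2 and AKR1C1 are high on both.

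Transcript length moved with the ratios. The median length of the longest annotated transcript was 4264 bases for the genes called lower, 2248 for those called higher, and 3859 over all members, with 3′ UTRs of 1917 bases for the lower genes and 619 for the higher genes, against 1633 over all members. Across 6981 members with an annotation, the Spearman rho of combination over enzastaurin with length was -0.31, and with GC content 0.01. For paclitaxel over DMSO rho was 0.14 with length and -0.39 with GC content. With a smooth trend in both removed, 11 genes were called higher and 196 lower, and 186 of the 219 calls remained. The part of transcript length in the remaining calls was not tested.

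Promoter motifs were counted in the RefSeq windows from 250 bases before to 50 after the start, on both strands, for the 167 lower, 10 higher and 5827 members with an entry. CCAAT was found in 80% of the promoters of higher genes and 41.9% of those of lower genes, against 37.1% over members and 35.7% of all 27305 promoters of the table. The CHR core TTTGAA was found in 40% (4 of 10) for the higher genes and 11.4% for the lower genes, against 9.73% over members and 15.4% of all promoters of the table. Among the 124 promoters of genes 1.5-fold or more higher, CCAAT was in 43.5% and TTTGAA in 20.2%. The AP-1 letters TGANTCA were in 4.19% of the lower promoters and 4.03% of all members' promoters, and the TEAD letters GGAATG in 15% of the lower promoters and 10.7% of all members' promoters. The antioxidant letters TGACNNNGC were in 16.9% of the promoters of genes 1.5-fold or more higher and 15.8% of all members' promoters. A match is a description of letters in the window and not a bound site.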

How the data were processed

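Total RNA of 4 samples was transcribed with random primers and sequenced on a NovaSeq6000, per the labels' protocols. The authors deposited 1 table of 20289 Ensembl genes with expected counts, not scaled for depth, and FPKM values, scaled by the authors for length and library size; RSEM and hg38 are named in the submitters' processing notes, and the sources used here give no version, aligner, strandedness or read length. All value columns were matched to a group by treatment name, and 0 stayed unmatched. Between 10.7% and 11.4% of a library's expected counts are not whole; they were rounded to whole numbers.

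TMM factors came from edgeR 4.0.16 over all 4 libraries, with no model fitted. Genes with a mean of 500 or more counts were kept, holding 95.4% to 95.9% of counts. A gene was called at 2-fold or more in combination over enzastaurin where the conditional interval (exact, 95%, Clopper-Pearson) did not include equality. With 1 library per group there is no test over samples and no p. The total per library sets the precision, and intervals cover counting error only.

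Named genes are the 15 highest and 15 lowest ratios, in each of 40 gene lists up to 4 members past the rule and furthest from 0 (at least 2 members, called or not), 10 further genes named in the design, and the genes either side of the mean limit; 1 gene that the rule names is not reported here. The members and lists were chosen with earlier results of these data known. Coordinates, lengths and GC content are from GENCODE 29, matched for 99.93% of members; 583 genes of the table have no symbol. Promoters are from RefSeq (GRCh38.p14), using the first start listed for a symbol; 3 of the printed windows reach past the GENCODE start.

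Alternatives were DESeq2 1.42.0 size factors, library size alone, other mean limits, FPKM as deposited after adding a pseudocount of 1 or 0.1, a fold limit of 1.5, counts thinned to the depth of the smallest library, and removal of a smooth length and GC trend. Sums over genes that share 20% or more of 75-base windows were added after the data were seen. Python 3.11.15 (scipy 1.17.1, numpy 2.4.6, matplotlib 3.10.9, pandas 2.3.3) and R 4.3.3 were used. Without a filter on the mean, 20 or more counts in the higher library were required.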

Additional observations from a re-analysis of the deposited data

Results flagged for a closer look

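In 5 named genes both counting intervals excluded 0 and the 2 log2 ratios had opposite signs. With 1 library per group the difference was not tested in any of them, and each value is the ratio of combination over enzastaurin minus that of paclitaxel over DMSO. BIRC5 was at 0.53 with enzastaurin and -0.10 without it, a difference of 0.63. ITGB1BP1, a regulator of integrin activation, was at 0.31 with enzastaurin and -0.12 without it, a difference of 0.43. TUBB was at -1.25 with enzastaurin and 0.02 without it, a difference of -1.27. CXCL8 was at -0.34 with enzastaurin and 0.08 without it, a difference of -0.42. FN1 was at -0.31 with enzastaurin and 0.02 without it, a difference of -0.34. TUBB was the only one of these that passed the 2-fold limit in either pair. In all 5 genes the ratio without enzastaurin was smaller in size than the SD of 0.13 across genes in that pair. Its interval covers counting error only, so its sign is uncertain, most of all for TUBB and FN1.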

How the results depend on the processing

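The counts of genes 2-fold or more higher (13) and lower (206) moved with the limits that define them. A mean of 100 or more counts gave 26 higher and 392 lower, no filter on the mean gave 110 and 643, a mean of 2000 or more gave 7 and 54, and a fold limit of 1.5 gave 146 and 612. Under the other alternatives the counts stayed between 11 and 15 higher and between 166 and 223 lower. Of the 219 calls, 206 remained with DESeq2 size factors, 218 with library size alone, 166 with FPKM and a pseudocount of 1, 197 with a pseudocount of 0.1, 214 after thinning and 186 with the length and GC trend removed. More genes were lower than higher under each of these settings. Named genes gained a call in some settings, such as PRIM1, at -1.20, and TACC2, at 1.17, both with the length and GC trend removed. RGPD5 reversed to 0.17 when summed with the genes that share its reads.

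No scaling moved the median of all members by over 0.1. The medians of 11 lists close to 0 changed sign under some alternative: ABC transporters, ERK feedback, MYC network, NF-kB, actin, integrins, microtubule-associated proteins, mitochondrially encoded, p53, splicing and tubulins. The mitochondrially encoded list was lowest, at -0.26 with the trend removed, and tubulins highest, at 0.11 with a mean of 100 or more counts; the cause was not tested. No paired analysis was possible because each group has 1 library, and no library could be left out. Depth limits genes near the mean limit: TRAFD1, at a mean of 500 counts, was at 0.04 (-0.16 to 0.23).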

Other observations

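The deposited expected counts and FPKM values together give the effective transcript length that RSEM used for a gene in a library, up to a constant per library. After centring, this implied length was shorter by 0.2 or more on the log2 scale in combination over enzastaurin for 244 of 6986 genes and longer for 98, against 96 shorter and 105 longer in paclitaxel over DMSO. Examples, chosen after their values were seen, were SMG1, a kinase of nonsense-mediated decay, at -0.78, NCBP3, a cap-binding protein, at -0.94, PNRC2, a decapping cofactor, at -0.87, and CRAMP1 at -0.83, while TANC2 was at 0.77. In SMG1 the counts were 7069 under the combination against 6406 under enzastaurin, and the FPKM values 57.70 under the combination against 25.32 under enzastaurin. SMG1 has closely related pseudogene copies, so how its reads were split is uncertain. For such genes the ratio of counts and the ratio of FPKM differ, and which isoforms were assigned the reads cannot be read from gene totals.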
